A study of Mus musculus with 10 samples.

Results

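The matrix metalloproteinases (MMPs), their tissue inhibitors (TIMPs) and the ADAMTS proteases were examined by RNA sequencing of whole uteri. The animals were 4 months old, 5 in the HSD17B1TG group and 5 in the WT group, and each gave 1 library. The members are the protein-coding genes named *Mmp*, *Timp* or *Adamts* with a number. They were 43 of the 29268 genes in the table, 20 MMP, 4 TIMP and 19 ADAMTS genes, and *Mmp1a*, *Mmp1b* and *Mmp8* were not analysed here. The HSD17B1TG mice are of the FVB/N strain and carry a human HSD17B1 cDNA under a chicken beta actin promoter with a CMV enhancer, which is active throughout the body, and the line is kept heterozygous by breeding with WT mice. The enzyme converts estrone to the more active estradiol. The HSD17B1TG females do not cycle, and the study's methods give random cycle phases for WT uteri collected for histology, so genotype and cycle phase cannot be told apart in the comparison. The mice are called TG1 to TG5 and WT1 to WT5, and the numbers carry no pairing.

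The uterus rebuilds its connective tissue with every cycle and pregnancy, and these proteases do much of that work. MMPs are zinc enzymes that are made as inactive precursors and cut collagens, gelatin, elastin and other matrix proteins, either as secreted enzymes or anchored in the cell membrane. TIMPs bind the active site of MMPs, and *Timp3* also inhibits several ADAMTS proteases. ADAMTS proteases are secreted, carry thrombospondin repeats that hold them in the matrix, and include enzymes that cut large proteoglycans such as versican and enzymes that trim procollagens.

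Between 14817228 and 23271988 counts per mouse lay on genes, and the members took 0.117% to 0.358% of them. The 10 most counted genes took 6.97% to 12.5% of the counts in HSD17B1TG and 5.18% to 6.15% in WT, without overlap, and mitochondrial genes took 5.74% to 7.57% in TG1, TG4 and TG5 and 1.94% to 3.37% in the other 7 mice. The part of these shares in the results was not tested. The test was edgeR's quasi-likelihood test on read counts. A gene was called where its Benjamini-Hochberg adjusted p was under 0.05, its fold change over 2 and its mean over 1 FPKM in either group. FPKM are fragments per kilobase of gene length, here scaled by the DESeq2 size factor of each library. Of the 43 members, 34 passed the filter on low counts. The uterine genes *Hoxa10*, *Hoxa11*, *Hand2*, *Pgr* and *Esr1* were present in every mouse. The human cDNA is not a row of the mouse table, so the transgene itself was not analysed here. TG1 and WT4 stood apart in smooth muscle: the summed FPKM of 10 smooth muscle markers was 7695 in TG1 and 6006 in WT4 against 452 to 3256 in the other 8 mice. In bulk tissue, fewer cells of a type and less RNA per cell cannot be told apart.

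Of the members, *Adamts7* and *Adamts15* were called lower in the HSD17B1TG uterus, and none was called higher. Of 10 markers of stromal cells, 5 were called lower in the same comparison and 9 had a negative log2 fold change, and whether the families differ from each other was not tested. Over all genes tested, 2.08% were called lower and 2.16% higher, so 2 of 34 members (5.88%) lower and 0 higher stand against those shares. With DESeq2, the test used by the study, 6 members were called lower and 1 higher, where 3.07% and 4.17% of all genes were. The 6 were *Adamts1*, *Adamts5*, *Adamts7*, *Adamts15*, *Mmp19* and *Mmp28*, and *Mmp9* was the 1 called higher. At an adjusted p under 0.05 alone, 4 members passed (11.8%, against 6.16% of all genes), and 12 had an unadjusted p under 0.05 (35.3%, against 26.1%), 3 of them higher and 9 lower. The median log2 fold change was -1.01 over the 17 ADAMTS genes tested, 15 of which had a negative value, 0.46 over the 14 MMPs tested and -0.28 over the 3 TIMPs tested. Over all 16993 genes tested it was 0.00, with 49.8% negative. Leaving out 1 mouse at a time gave 0 to 7 members called lower, 0 without TG2, TG4, TG5, WT3 or WT5, 1 without WT1 or WT2, 3 without TG3 or WT4, and 7 without TG1. The share of all genes tested that was called lower moved with it, from 0.156% without TG5 to 3.33% without TG1 and 3.84% without WT4.

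**Figure D1:**
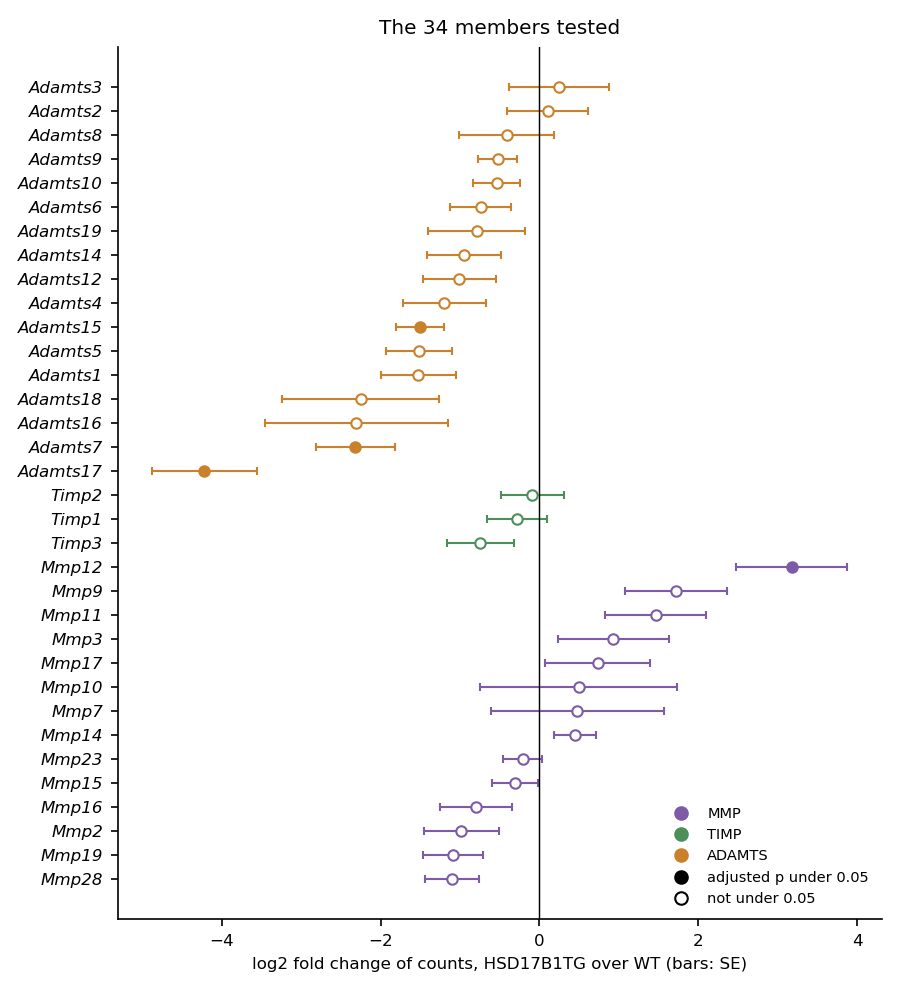
Log2 fold change of read counts in HSD17B1TG over WT (horizontal axis) for each of the 34 members tested (rows, grouped by family), with bars for the standard error and filled points for an adjusted p under 0.05 (edgeR). The ADAMTS points lie mostly left of 0, with 15 of 17 negative, the MMP points spread to both sides, and the 3 TIMP points lie between -0.74 and -0.09.

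*Adamts7* cuts the cartilage matrix protein COMP and is known from remodelling of the vessel wall. It lies on chromosome 9 (GRCm38, chr9:90163069-90208071, forward strand). Its level was 2.22, 1.29, 1.37, 2.65 and 2.10 FPKM in TG1 to TG5. In WT1 to WT5 it was 7.63, 14.7, 13.9, 1.57 and 9.82 FPKM. In 4 of the WT mice it was above every HSD17B1TG mouse, and WT4 lay within the HSD17B1TG range. The log2 fold change was -2.32 (SE 0.50), a level 4.98-fold lower, with an adjusted p of 0.0308 (edgeR). It was not called with limma on voom weights, log2(FPKM + 1) or log2(FPKM + 0.1) (adjusted p = 0.105, 0.0514 and 0.0524). A two-sided exact permutation test of its log2(FPKM + 1) gave p = 0.0317, unadjusted. The adjusted p of edgeR was 0.00194 without WT4 and was over 0.05 without TG2, TG4, TG5, WT1, WT2, WT3 or WT5, where it lay between 0.0517 and 0.0784. An exon of *Tbc1d2b* overlaps the gene on the other strand (mean 13.8 FPKM in HSD17B1TG and 12.1 in WT), and since the strand setting of the counting is not given in the sources used here, reads from the shared stretch cannot be told apart.

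*Adamts15* cuts versican and aggrecan, the large proteoglycans that bind hyaluronan (chr9:30899155-30922452, reverse strand). In TG1 to TG5 its level was 2.16, 1.67, 1.65, 1.91 and 0.818 FPKM, and in WT1 to WT5 it was 3.34, 2.69, 6.74, 4.93 and 5.43 FPKM. The groups did not overlap, and WT1 and WT2 were the WT mice nearest to the HSD17B1TG range. In fold change the gene was 2.83-fold lower, -1.50 on the log2 scale (SE 0.30), with an adjusted p of 0.0260 (edgeR). The adjusted p lay between 0.0534 and 0.0684 without TG2, TG4, TG5, WT3 or WT5.

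*Adamts5*, another enzyme of the versican and aggrecan group (chr16:85856173-85901828, reverse strand), had 1.33, 1.54, 0.414, 2.14 and 0.994 FPKM in TG1 to TG5. WT1 to WT5 had 3.10, 2.18, 5.50, 2.58 and 5.04 FPKM. The groups did not overlap, although TG4 and WT2 lay side by side. The log2 fold change of -1.52 (SE 0.41) had an adjusted p of 0.0534 (edgeR), just past the threshold, and DESeq2 gave 0.00604. Without TG3 and without WT4 edgeR gave 0.0436 and 0.0361. In the other fits with 1 mouse left out the adjusted p lay between 0.0594 and 0.122.

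*Adamts17*, a protease of the family linked to fibrillin fibres, was the member with the lowest fold change (chr7:66839735-67153171, forward strand). It was hardly expressed in the HSD17B1TG uterus, with 0.0622, 0.0370, 0.0274, 0.0320 and 0.00828 FPKM in TG1 to TG5, or 1 to 9 counts. WT1 to WT5 had 0.498, 0.820, 1.29, 0.131 and 0.459 FPKM, or 21 to 161 counts. The groups did not overlap, with WT4 the lowest of the WT mice. On the log2 scale the difference was -4.22 (SE 0.66), with an adjusted p of 0.0177 (edgeR), and the adjusted p stayed under 0.05 with each mouse left out in turn, at most 0.0482. The mean stayed under 1 FPKM in both groups, so the gene was not called.

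**Figure D2:**
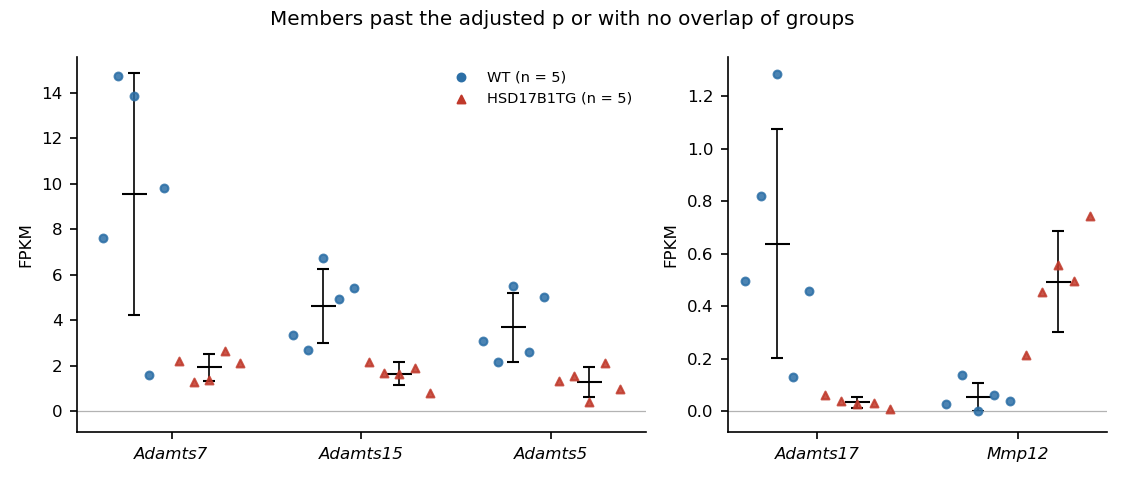
FPKM of each mouse (points; circles WT, triangles HSD17B1TG) with the mean and SD of each group (n = 5) for the 5 members with an adjusted p under 0.05 or with groups that did not overlap. The left axis holds *Adamts7*, *Adamts15* and *Adamts5*, lower in HSD17B1TG with WT4 of *Adamts7* as the exception, and the right axis holds *Adamts17* and *Mmp12*, both near or under 1 FPKM.

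In all, 3 members had non-overlapping groups with HSD17B1TG lower (8.82% of those tested, where 2.65% of all genes tested did) and 1 with HSD17B1TG higher (2.94%, against 4.04%).

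Of the 7 proteoglycan-cutting ADAMTS genes, 6 were tested. All 6 had a negative log2 fold change, from -1.53 to -0.41, and 4 had an unadjusted p under 0.05. *Adamts1*, known for its role in ovulation and in female fertility of mice, was the most abundant ADAMTS gene of the WT uterus (chr16:85793827-85803113, reverse strand, close to *Adamts5*). It had 35.5, 21.6, 13.3, 9.08 and 7.05 FPKM in TG1 to TG5 and 40.8, 22.2, 39.1, 68.2 and 78.0 FPKM in WT1 to WT5. Only TG1 lay within the WT range. The log2 fold change was -1.53 (SE 0.47) with an adjusted p of 0.0739 (edgeR), which was 0.0249 without TG1 and 0.0165 with DESeq2. *Adamts4* had means of 4.02 ± 2.59 and 9.22 ± 5.08 FPKM (SD, n = 5) in HSD17B1TG and WT, and *Adamts9* had 3.09 ± 0.81 and 4.44 ± 1.28 FPKM. *Adamts8*, which lies beside *Adamts15* on chromosome 9 and points the other way, had an adjusted p of 0.704 (edgeR) and a log2 fold change of -0.41 (SE 0.59), which was 0.48 without WT4. *Adamts20* was too low to test, with at most 26 counts.

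The procollagen N-proteinases, which trim the ends of fibrillar procollagens, did not pass the test: 0 of the 3 had an unadjusted p under 0.05 with edgeR, and DESeq2 called 0. *Adamts2*, the main enzyme of this group, had 46.8, 13.1, 13.9, 18.01 and 6.81 FPKM in TG1 to TG5 and 17.8, 11.3, 10.5, 38.0 and 13.9 FPKM in WT1 to WT5. The highest mouse of each group, TG1 and WT4, was also the highest of its group in smooth muscle markers. The same held for the summed FPKM of 8 mast cell markers (41.2 in TG1 and 60.1 in WT4). TG1, but not WT4, was also the highest of its group in stromal, endothelial and macrophage markers. The part of these cells in the *Adamts2* values was not tested. Between the groups *Adamts2* had a log2 fold change of 0.11 (SE 0.51, adjusted p = 0.918, edgeR), and of -0.50 without TG1. *Adamts3* had a log2 fold change of 0.24 (SE 0.63), which was -0.29 without TG1, and *Adamts14* of -0.95 (SE 0.47, adjusted p = 0.226, edgeR).

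Among the other ADAMTS genes, *Adamts10*, which binds fibrillin microfibrils, had 18.7, 10.5, 8.41, 13.98 and 7.61 FPKM in TG1 to TG5 and 16.4, 17.6, 17.7, 9.17 and 24.9 FPKM in WT1 to WT5. The groups overlapped, and the log2 fold change was -0.54 (SE 0.30, adjusted p = 0.280, edgeR). *Adamts12*, the closest relative of *Adamts7*, had 1.31 ± 0.93 and 2.62 ± 0.485 FPKM in HSD17B1TG and WT, with an adjusted p of 0.194 (edgeR). In 4 HSD17B1TG mice *Adamts12* was below every WT mouse. Without TG1 it was called lower, with a log2 fold change of -1.49 and an adjusted p of 0.0401 (edgeR). *Adamts16* owed its negative value to 1 mouse: WT3 had 8.82 FPKM and the other 9 mice 0.120 to 0.902, and without WT3 the log2 fold change was 0.48. *Adamts6*, *Adamts18* and *Adamts19* had log2 fold changes of -0.74, -2.25 and -0.79 with an adjusted p of 0.253, 0.179 and 0.449 (edgeR). Without TG1, *Adamts6* and *Adamts19* were called lower, with log2 fold changes of -1.18 and -1.68 and adjusted p of 0.0377 and 0.0423 (edgeR). *Adamts13*, the von Willebrand factor protease, was too low to test, with at most 22 counts.

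**Figure D3:**
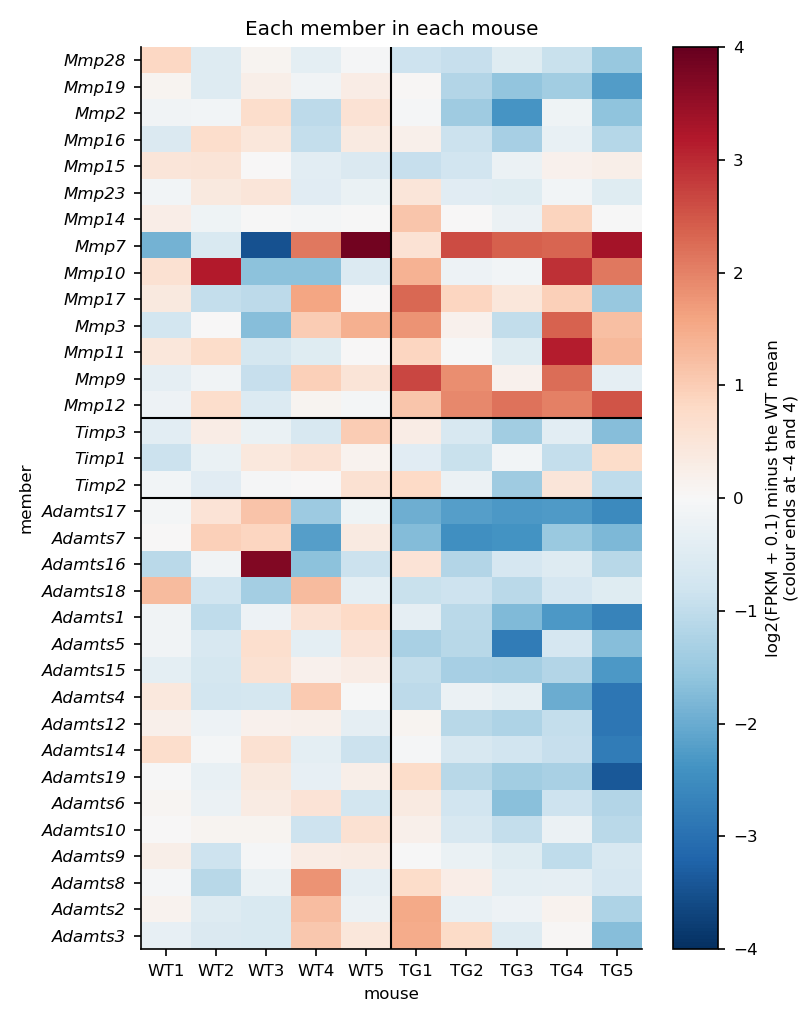
Each of the 34 members tested (rows, MMP, TIMP and ADAMTS from top to bottom, each in order of its fold change) in each mouse (columns), coloured by log2(FPKM + 0.1) minus the WT mean. The blue fields of the ADAMTS rows are mostly deepest in TG5 and palest in TG1, the WT4 column is blue in *Adamts7* and *Adamts17*, and the dark red fields of *Mmp7*, *Mmp10* and *Adamts16* on the WT side are single mice.

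The MMPs did not move one way. Of the 14 tested, 8 had a positive and 6 a negative log2 fold change, and 5 had an unadjusted p under 0.05, 3 of them higher and 2 lower in HSD17B1TG. The exception past the adjusted p was *Mmp12*, the macrophage metalloelastase, which cuts elastin. It had 0.215, 0.453, 0.558, 0.497 and 0.746 FPKM in TG1 to TG5 and 0.0281, 0.138, 0, 0.0602 and 0.0405 FPKM in WT1 to WT5. The groups did not overlap, and TG1 was nearest to the WT range. Its level was 9.04-fold higher, 3.18 on the log2 scale (SE 0.70), with an adjusted p of 0.0328 (edgeR), at 29 to 84 counts in HSD17B1TG and 0 to 19 in WT. Both means were under 1 FPKM, so the gene was not called. The adjusted p lay between 0.0654 and 0.0817 without TG2, TG4, TG5, WT1 or WT5. An exon of *Mmp1b* overlaps *Mmp12* on the other strand. The summed FPKM of 10 macrophage markers was 249 to 462 in HSD17B1TG and 225 to 398 in WT, with no marker at 0 in all mice. Of these markers *Cd68* was called higher (log2 fold change 1.58, adjusted p = 0.0269, edgeR) and *Mertk* lower (-1.19, adjusted p = 0.0255, edgeR). Their part in the *Mmp12* result was not tested.

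*Mmp12* lies in a cluster of 7 member genes on chromosome 9 (chr9:7272514-7699585), in the order *Mmp13*, *Mmp12*, *Mmp3*, *Mmp10*, *Mmp27*, *Mmp20* and *Mmp7*, all on the forward strand. Several promoters of this cluster are known targets of AP-1, a dimer of FOS and JUN proteins. RefSeq promoters (GRCm38.p6, 250 bases before to 50 after each start site) were matched by symbol for 29 of the 43 members, 32 promoters in all since *Mmp7*, *Mmp12* and *Mmp23* have 2 each, and *Adamts5*, *Adamts7* and *Adamts15* were not among them. The AP-1 letters TGANTCA, which read the same on both strands, were present in 6 of the 9 promoters of the cluster, which belong to 6 of its 7 genes, and in 0 of the 23 promoters of the 22 other members. That is 18.8% of the members' promoters, and over all 32851 RefSeq promoters of this length 7.81% hold the motif. It began 35 bases before the start site in *Mmp13*, 44 in *Mmp12*, 46 in *Mmp3*, 63 in *Mmp10* and *Mmp7* and 95 in *Mmp20*, while the *Mmp27* promoter and the other promoter of *Mmp7* and of *Mmp12* held none. The 110 bases before the start site of the 4 cluster genes that were tested are shown in this order along the chromosome, with the motif in capitals, so that its place can be compared between genes with unlike values. They were chosen after their values were seen and are at chr9:7347264-7347373, chr9:7445712-7445821, chr9:7502232-7502341 and chr9:7691980-7692089, forward strand.
Mmp12: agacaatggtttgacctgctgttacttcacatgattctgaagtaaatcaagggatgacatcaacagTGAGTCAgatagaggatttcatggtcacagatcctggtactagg
Mmp3: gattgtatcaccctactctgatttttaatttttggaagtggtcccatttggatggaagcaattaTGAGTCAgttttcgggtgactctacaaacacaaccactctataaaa
Mmp10: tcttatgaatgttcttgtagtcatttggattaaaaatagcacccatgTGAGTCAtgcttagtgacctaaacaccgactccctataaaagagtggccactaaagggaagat
Mmp7: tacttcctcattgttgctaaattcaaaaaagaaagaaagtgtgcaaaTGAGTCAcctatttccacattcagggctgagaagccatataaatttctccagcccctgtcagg
A match is a description of the letters and not a measured binding site.

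With the same 7 letters TGAGTCA, these genes differed widely in level and in spread. *Mmp7*, matrilysin, which is made by epithelial cells, had 9.34, 38.5, 32.9, 31.6 and 63.4 FPKM in TG1 to TG5. In WT1 to WT5 it had 1.599, 4.04, 0.464, 27.4 and 92.3 FPKM. WT1, WT2 and WT3 were below every HSD17B1TG mouse and WT5 was above all of them, so the log2 fold change of 0.48 had an SE of 1.09 (adjusted p = 0.820, edgeR). Without WT5 it was 2.04, with an adjusted p of 0.267 (edgeR). The summed FPKM of 10 epithelial markers was 938 to 4025 in HSD17B1TG and 530 to 1979 in WT, and 0 of the 10 passed an adjusted p of 0.05 with edgeR, where 8 had an unadjusted p under 0.05 and DESeq2 called 4 higher. In WT5 the epithelial sum was the lowest of all mice, at 530. *Mmp3*, stromelysin 1, ranged from 1.21 to 13.1 FPKM in HSD17B1TG and from 0.689 to 6.89 in WT, and *Mmp10*, stromelysin 2, from 0.167 to 2.27 and from 0 to 2.72 FPKM. Neither differed between the groups beyond the spread of the mice (adjusted p = 0.435 and 0.836, edgeR). The log2 fold change of *Mmp10* was 0.49 with all mice, -0.17 without TG4 and 2.75 without WT2 (adjusted p = 0.211 without WT2, edgeR). *Mmp13*, *Mmp20* and *Mmp27* were too low to test, with at most 9, 3 and 27 counts.

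The 2 most abundant MMPs of the uterus were *Mmp2*, gelatinase A, and *Mmp14*, the membrane-type MMP that activates it on the cell surface. *Mmp2* (chr8:92827291-92853420, forward strand) had 129, 49.5, 25.5, 118 and 43.0 FPKM in TG1 to TG5 and 121, 121, 213, 64.4 and 198 FPKM in WT1 to WT5. TG2, TG3 and TG5 were below every WT mouse, while TG1 and TG4 lay within the WT range. The log2 fold change of -0.98 (SE 0.47) did not pass (adjusted p = 0.217, edgeR). *Mmp14* (chr14:54431612-54445364, forward strand) had 136, 63.8, 53.5, 115 and 61.7 FPKM in TG1 to TG5 and the narrow range of 75.8, 56.1, 62.0, 59.6 and 62.3 FPKM in WT1 to WT5. TG1 and TG4 were above all WT mice, and the log2 fold change was 0.44 (SE 0.27, adjusted p = 0.319, edgeR).

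The balance of these enzymes within a mouse was also compared. The FPKM of *Mmp2* divided by that of *Mmp14* was 0.947, 0.776, 0.477, 1.02 and 0.696 in TG1 to TG5 and 1.59, 2.16, 3.44, 1.08 and 3.18 in WT1 to WT5. The ratio was 0.784 ± 0.215 in HSD17B1TG and 2.29 ± 1.01 in WT (SD, n = 5), with TG4 and WT4 the nearest mice of the 2 groups. The groups did not overlap in this ratio, which was computed after the values were seen and was not tested. They did overlap in the FPKM of *Mmp2* divided by that of *Timp2*, 0.608 ± 0.0954 in HSD17B1TG and 1.16 ± 0.469 in WT. In that ratio WT4, with 0.527, lay within the HSD17B1TG range.

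*Mmp9*, gelatinase B, is carried by neutrophils and macrophages. It ranged from 0.436 to 4.31 FPKM in HSD17B1TG and from 0.263 to 1.23 in WT, with TG1, TG2 and TG4 above every WT mouse. The log2 fold change was 1.72 (SE 0.64, adjusted p = 0.122, edgeR), and DESeq2 called it higher (adjusted p = 0.0427). Of 11 neutrophil markers, 5 were tested and 0 passed an adjusted p of 0.05 with edgeR, where 1 had an unadjusted p under 0.05 and DESeq2 called 1 higher. All 5 had a positive log2 fold change, with a median of 2.12. The summed FPKM of the list was 490 to 2756 in HSD17B1TG and 3.15 to 965 in WT, and *Lcn2*, which epithelial cells also make, took 80.3% to 99.7% of it. Without *Lcn2* the sum was 7.74 to 13.954 in HSD17B1TG and 0.619 to 5.10 in WT, without overlap. *Retnlg* and *Ngp* were at 0 in all WT mice and in 4 and 3 of the HSD17B1TG mice. Their part in the *Mmp9* values was not tested.

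**Figure D4:**
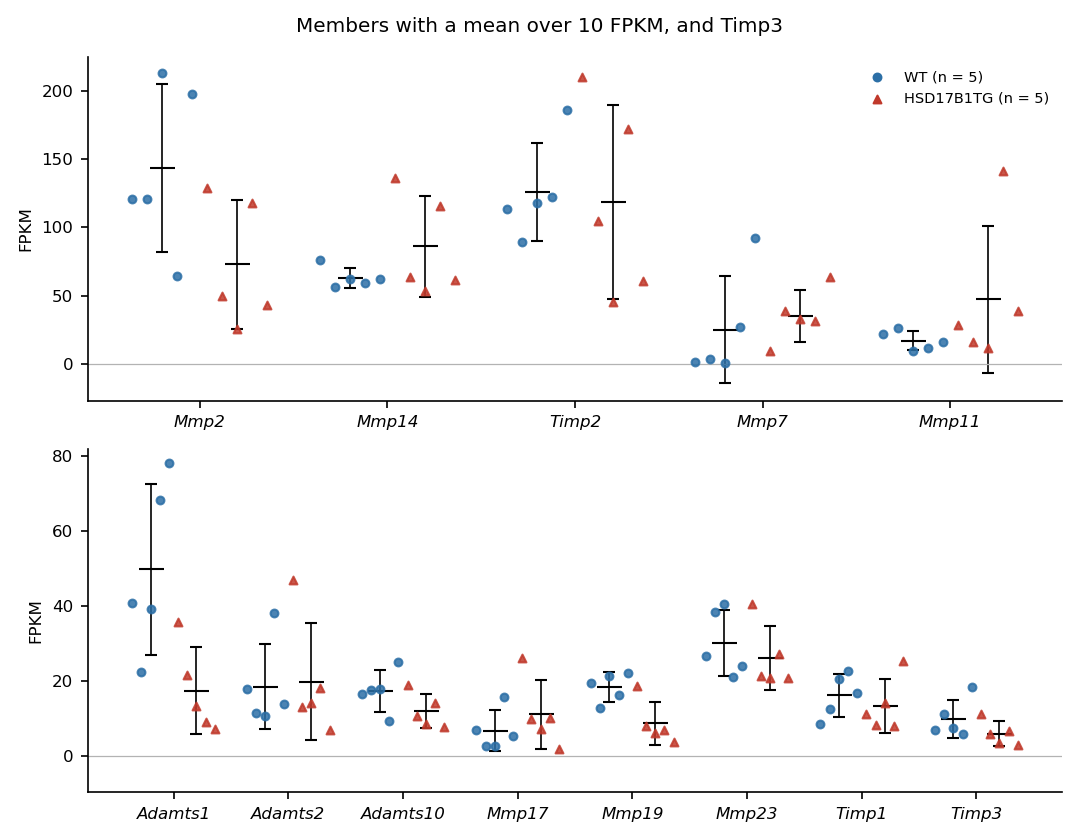
FPKM of each mouse (points; circles WT, triangles HSD17B1TG) with the mean and SD of each group (n = 5) for the 12 members with a mean over 10 FPKM in either group, and *Timp3*. *Mmp14* of the WT mice forms a narrow band between 56.1 and 75.8, TG4 stands alone in *Mmp11* at 142, and 4 HSD17B1TG mice of *Adamts1* and *Mmp19* lie below every WT mouse.

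The remaining abundant MMPs overlapped between the groups. *Mmp11*, stromelysin 3, is made by stromal cells in remodelling tissue and had 28.8, 15.9, 11.4, 142 and 39.2 FPKM in TG1 to TG5 and 21.9, 26.5, 9.73, 11.5 and 16.2 FPKM in WT1 to WT5. The level in TG4 carried most of its log2 fold change of 1.46 (SE 0.64, adjusted p = 0.175, edgeR), which was 0.47 without that mouse. TG4 also stood apart in the summed FPKM of 6 adipocyte markers, with 46.0 against 4.38 to 16.4 in the other mice. The part of these cells in the *Mmp11* value was not tested. *Mmp11* shares exon sequence with *Chchd10* on the other strand, which had a mean of 26.4 FPKM in HSD17B1TG and 13.8 in WT. *Mmp19*, a secreted MMP, had 18.6, 7.86, 5.90, 6.81 and 3.73 FPKM in TG1 to TG5 and 19.2, 12.6, 21.2, 16.1 and 22.1 FPKM in WT1 to WT5. TG1 alone lay within the WT range, and DESeq2 called the gene lower (adjusted p = 0.0499). With edgeR the log2 fold change was -1.09 (SE 0.38), with an adjusted p of 0.0980. Without TG1 it was -1.59 with an adjusted p of 0.0122 (edgeR). *Tmem198b* overlaps an exon of *Mmp19* on the other strand.

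*Mmp17*, a membrane-type MMP known from vascular smooth muscle, had 26.1, 9.62, 7.19, 10.1 and 1.77 FPKM in TG1 to TG5 and 6.86, 2.66, 2.48, 15.7 and 5.25 FPKM in WT1 to WT5. TG1 and WT4 were again the highest of their groups, as they were in the smooth muscle and mast cell markers, and the adjusted p was 0.519 (edgeR). The part of these cells in the *Mmp17* values was not tested. *Mmp23*, an MMP without the usual haemopexin domain, had 40.3, 21.2, 20.7, 27.2 and 20.8 FPKM in TG1 to TG5 and 26.6, 38.2, 40.4, 21.003 and 24.0 FPKM in WT1 to WT5. Its log2 fold change was -0.21 (SE 0.25, adjusted p = 0.630, edgeR). Of the lower MMPs, *Mmp28* had 0.593 ± 0.169 and 1.27 ± 0.565 FPKM in HSD17B1TG and WT, with an adjusted p of 0.0747 by edgeR and 0.0219 by DESeq2. *Mmp15* and *Mmp16* had an adjusted p of 0.546 and 0.292 (edgeR). *Mmp21*, *Mmp24* and *Mmp25* were too low to test, with at most 5, 10 and 12 counts.

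No difference of the inhibitors passed the test: of the 3 TIMPs tested, 0 had an unadjusted p under 0.05 with edgeR, and DESeq2 called 0. *Timp2*, which also takes part in the activation of *Mmp2* by *Mmp14*, was the most abundant inhibitor in every mouse, with 68.5% to 92.2% of the summed TIMP FPKM. It had 210, 105, 45.4, 172 and 60.9 FPKM in TG1 to TG5 and 114, 89.0, 118, 122 and 186 FPKM in WT1 to WT5, with a log2 fold change of -0.09 (SE 0.40, adjusted p = 0.913, edgeR). The HSD17B1TG mice spanned a wider range than the WT mice at both ends. *Timp1*, induced in inflamed and regenerating tissue, had 11.1, 8.16, 14.1, 7.75 and 25.3 FPKM in TG1 to TG5 and 8.34, 12.5, 20.5, 22.5 and 16.7 FPKM in WT1 to WT5 (log2 fold change -0.28, SE 0.38, adjusted p = 0.678, edgeR). *Timp3*, the TIMP that is bound to the matrix, had 10.96, 5.70, 3.37, 6.68 and 2.71 FPKM in TG1 to TG5 and 6.72, 10.98, 7.43, 5.70 and 18.2 FPKM in WT1 to WT5 (log2 fold change -0.74, SE 0.42, adjusted p = 0.289, edgeR). *Timp4* was at 0 in TG1, TG2, TG3, TG5 and WT4 and had 0.0421 FPKM in TG4 and 0.0069, 0.0268, 0.0316 and 0.0166 FPKM in WT1, WT2, WT3 and WT5, at most 4 counts.

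The members were also summed over each family, with no test. The summed FPKM of the ADAMTS genes was 137, 70.3, 55.9, 60.5 and 32.7 in TG1 to TG5 and 125, 92.5, 133, 166 and 164 in WT1 to WT5. In 4 HSD17B1TG mice the sum was below every WT mouse, and TG1 lay within the WT range. The means were 71.3 ± 39.2 and 136 ± 30.4 (SD, n = 5), and *Adamts1* alone made up 49.9% of their difference. Without *Adamts1* they were 54.0 ± 28.4 and 86.4 ± 10.6, and TG1, with 101, lay above every WT mouse (70.3 to 97.9) while the other 4 HSD17B1TG mice lay below all of them. The MMP sums were 306 ± 133 in HSD17B1TG and 320 ± 80.3 in WT, and the TIMP sums were 138 ± 70.0 and 152 ± 41.4, both with overlapping mice. The summed TIMP FPKM divided by the summed MMP FPKM was 0.445 ± 0.102 in HSD17B1TG and 0.482 ± 0.106 in WT, a difference smaller than either SD. Without *Mmp2* and *Timp2* the ratio was 0.0914 ± 0.0377 and 0.148 ± 0.0375, a difference larger than either SD, with overlapping mice. *Mmp2* was the most abundant MMP in all 5 WT mice. In the HSD17B1TG mice *Mmp14* was the most abundant in TG1, TG2 and TG3, *Mmp11* in TG4 and *Mmp7* in TG5. Members varied more between mice of a group than genes did in general: the median SD of log2 CPM was 0.836 in HSD17B1TG and 0.691 in WT over the 34 members tested, and 0.438 and 0.370 over all genes tested.

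**Figure D5:**
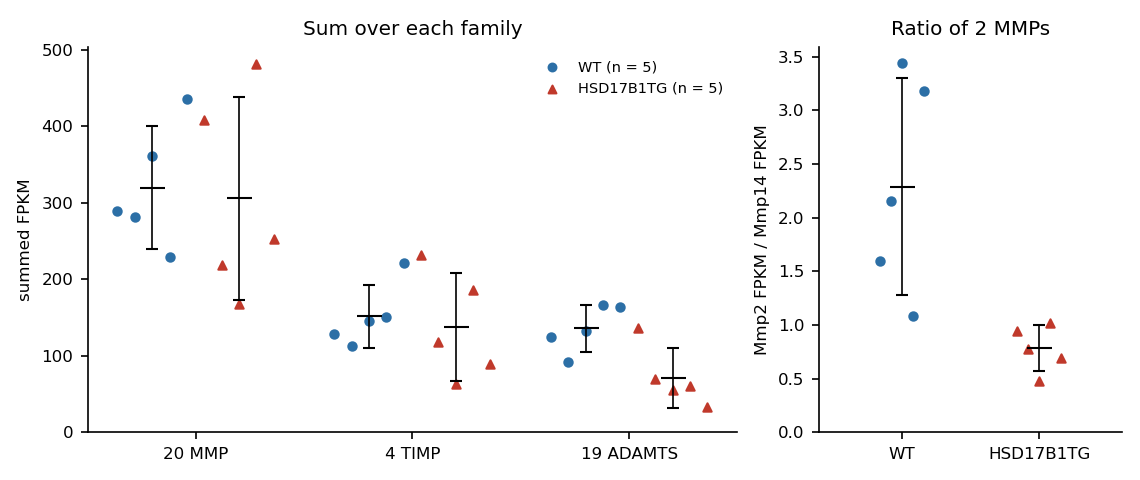
Left, FPKM summed over the 20 MMP, 4 TIMP and 19 ADAMTS genes in each mouse (points; circles WT, triangles HSD17B1TG), with the mean and SD of each group (n = 5). Right, the FPKM of *Mmp2* divided by that of *Mmp14* in each mouse, which reached at most 1.02 in HSD17B1TG and at least 1.08 in WT.

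The substrates and partners of these proteases were read from lists of related genes. Of 15 substrates of ADAMTS and MMP proteases, 11 were tested, 10 of them had a negative log2 fold change, and 3 were called lower. These were *Vcan*, which encodes versican (log2 fold change -1.92, SE 0.37, adjusted p = 0.0239, edgeR), *Fbn1*, the fibrillin of microfibrils (-1.96, SE 0.47, adjusted p = 0.0396, edgeR), and *Col3a1*, the chain of type III collagen (-1.46, SE 0.37, adjusted p = 0.0445, edgeR). With 1 mouse left out in turn, the adjusted p stayed under 0.05 in 4, 2 and 2 of 10 fits, in the same order. *Vcan* had 2.81, 1.86, 2.41, 1.32 and 1.05 FPKM in TG1 to TG5 and 8.83, 10.2, 8.57, 5.00 and 2.94 FPKM in WT1 to WT5, without overlap. *Comp*, a substrate of *Adamts7*, was too low to test.

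Of 14 tested genes that activate, inhibit or dock matrix proteases, 2 were called lower and 1 passed the adjusted p with higher values. *Serpine2*, an inhibitor of thrombin and plasminogen activators, had a log2 fold change of -1.82 (SE 0.47, adjusted p = 0.0471, edgeR), and *Cd44*, the hyaluronan receptor that docks MMPs at the cell surface, of -1.11 (SE 0.27, adjusted p = 0.0414, edgeR). In both genes WT4 lay within the HSD17B1TG range. With 1 mouse left out in turn, their adjusted p stayed under 0.05 in 1 and 3 of 10 fits. *Bsg*, which encodes basigin, an inducer of MMPs, was higher (0.81, SE 0.20, adjusted p = 0.0443, edgeR), with 294 to 624 FPKM in HSD17B1TG and 206 to 280 in WT. Its adjusted p stayed under 0.05 in 3 of 10 fits with 1 mouse left out. Of 13 ADAM family genes tested, *Adam12* was called lower (-1.83, SE 0.35, adjusted p = 0.0234, edgeR), with 3.002 to 7.77 FPKM against 10.1 to 29.4. Its adjusted p stayed under 0.05 in 5 of 10 fits with 1 mouse left out. The list as a whole ran the other way: 10 of the 13 had a positive log2 fold change, 6 had an unadjusted p under 0.05 with higher and 1 with lower values, and DESeq2 called 3 higher and 1 lower. None of the 7 ADAMTS-like proteins tested passed an adjusted p of 0.05 (edgeR), where 2 had an unadjusted p under 0.05 and DESeq2 called 2. Of the astacin-like proteases and the procollagen proteinase enhancers *Pcolce* and *Pcolce2*, 4 genes were tested and 0 passed. Only the enhancer *Pcolce* had an unadjusted p under 0.05 (edgeR), and DESeq2 called 0.

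Markers of other cell types were read in the same mice. Of 10 stromal markers 5, *Col3a1* among them, were called lower and 0 higher, none was at 0, and their summed FPKM was 621 to 2352 in HSD17B1TG and 2103 to 2691 in WT. TG1, the HSD17B1TG mouse with the highest ADAMTS sum, also had the highest stromal sum of its group. WT4, the WT mouse with the highest ADAMTS sum and the lowest *Adamts7* and *Adamts17*, had a stromal sum of 2362, inside the WT range, but the lowest mean log2(FPKM + 1) of the stromal markers among the WT mice, 6.79 against 7.05 or more, and below the 6.89 of TG1. The stromal markers *Dcn* and *Lum* did not pass the test (log2 fold change -0.10 and 0.51, adjusted p = 0.915 and 0.518, edgeR). Of the 7 tested markers of natural killer and cytotoxic lymphocytes 5 were called lower, with a summed FPKM of 1.98 to 7.33 in HSD17B1TG and 9.71 to 91.4 in WT. The part of these cells in the ADAMTS values was not tested. With TG1 and WT4 both left out, a choice made after the smooth muscle values were seen, 9 members were called lower, 0 higher, and 3246 genes in all passed an adjusted p of 0.05, against 1046 with all mice. In that fit 5.16% of all genes tested were called lower. The 9 members were *Adamts1*, *Adamts5*, *Adamts6*, *Adamts7*, *Adamts12*, *Adamts15*, *Adamts19*, *Mmp16* and *Mmp19*.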

How the data were processed

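Uterine RNA of 5 HSD17B1TG and 5 WT mice was sequenced by the authors as paired-end reads of 150 bp and mapped with HISAT2 (2.0.5 in the submitters' processing notes) to GRCm38 with the Ensembl 94 annotation. The authors deposited 1 table with the raw count of each gene and mouse, the deposited signal (count divided by a DESeq2 size factor) and the deposited FPKM, which use the table's gene length and a fragment number proportional to the size factor. The authors' log2 fold change and p-value columns hold their own comparison and were not used. Which program counted the reads, and with what strand setting, is not given in the sources used here.

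The main test was that of edgeR 4.0.16 (R 4.3.3) on the counts (filterByExpr, TMM, quasi-likelihood test, Benjamini-Hochberg adjustment over 16993 genes). The thresholds follow the study's methods, but the study's test was DESeq2. The DESeq2 fit made here called 906 genes higher and 666 lower, the numbers that the study reports. Each mouse was taken as 1 replicate. Replicate libraries differed by more than sampling noise. The members, gene lists and rules were chosen with earlier results of these data known. Given for every mouse were members that were called, that had an adjusted p under 0.05, whose groups did not overlap or whose mean exceeded 10 FPKM, and the TIMPs. Alternatives were DESeq2 1.42.0, limma 3.58.1 (voom weights, or log2 FPKM with 1 or 0.1 added), other normalizations, filters and thresholds, and each mouse left out. A count of 3 corresponds to 0.129 to 0.202 CPM, which covers counting error only. The script was tested on simulated data. Markers and related genes were lists of general knowledge.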

Additional observations from a re-analysis of the deposited data

Results flagged for a closer look

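Among the 19 members given for every mouse, 38 groups of 5 mice were examined for a single mouse far from the others, and 5 were flagged. A mouse was flagged where its gap to the next one exceeded 0.71 of the range of the group. The nominal rate of 1 in 20 holds for independent groups of normally distributed values. FPKM of genes from the same mice need not be so, and the 5 flagged cannot be set against that rate. *Mmp11* in TG4 had 141.5 FPKM, against 11.4 to 39.2 in the other HSD17B1TG mice. *Mmp19* in TG1 had 18.6 FPKM, against 3.73 to 7.86. *Adamts2* stood apart in both groups, with 46.8 FPKM in TG1 against 6.81 to 18.01 and with 38.0 FPKM in WT4 against 10.5 to 17.8. *Timp4* in TG4 had 0.0421 FPKM, which is 4 counts, while the other HSD17B1TG mice were at 0. With the others at 0, any value above 0 would have been flagged.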

How the results depend on the processing

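The count of members called lower, 2 with all mice, was 6 with DESeq2, 3 with upper-quartile factors, 1 with limma on voom weights or on log2(FPKM + 0.1), and 2 with log2(FPKM + 1), where 3.07%, 2.38%, 1.11%, 1.88% and 1.34% of all genes were. *Adamts7* was not called in any of these limma fits, and *Adamts5* took its place in the last. The count was 6 at an adjusted p under 0.1, where 3.58% of all genes were, and 0 to 7 with 1 mouse left out, while 0.156% to 3.84% of all genes were. The count called higher, 0, was 1 with DESeq2 (*Mmp9*), where 4.17% of all genes were. At an adjusted p under 0.05 alone or with no minimum FPKM it was 1 (*Mmp12*), where 3.34% and 2.35% of all genes were. Under the last 2 rules 3 members were called lower, *Adamts17* among them, where 2.81% and 2.32% of all genes were. Members with an adjusted p under 0.05, 4 with all mice, were 9 with DESeq2 (12.9% of all genes) and 1 to 9 with 1 mouse left out (0.439% to 13.8% of all genes). Members with an unadjusted p under 0.05 were 9 to 18 (20.83% to 29.99% of all genes), and members whose groups did not overlap were 4 to 9, with 1 mouse left out, where 7.33% to 15.4% of all genes did not overlap. With TG1 and WT4 left out, chosen after seeing the data, 9 were called lower, 12 had an adjusted p under 0.05, 19 an unadjusted p under 0.05, and 13 did not overlap, against 5.16%, 19.1%, 33.2% and 24.7% of all genes.

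*Adamts2* changed sign, to -0.023, -0.011 and -0.019 with limma on voom weights, log2(FPKM + 1) and log2(FPKM + 0.1), below 0 without TG1, WT2, WT3 or WT5 (-0.50 to 0.55 with 1 mouse left out), and to -0.051 without both TG1 and WT4. *Timp2* became positive without TG3, TG5 or WT5 (-0.39 to 0.10 with 1 mouse left out). Without *Mmp2* and *Timp2* the TIMP to MMP ratio was 0.0914 ± 0.0377 in HSD17B1TG and 0.148 ± 0.0375 in WT, now further apart than either SD. The cause was not tested. *Adamts3*, *Adamts8*, *Adamts16* and *Mmp10* also changed sign in some fit, and the other 28 of 34 members tested did not. No paired analysis was possible because the replicate numbers were given in the order of the samples, and of the last numbers in the sample names, whose meaning is not given, the groups share only 1, that of TG1 and WT4.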
